A study of Mus musculus with 12 samples.

Results

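The genes described here encode the protein import machinery of mitochondria, the translocases of the outer membrane (Tomm) and of the inner membrane (Timm), and the Slc25 family of mitochondrial carriers. They were taken by name alone, as every gene symbol that starts with Timm, Tomm or Slc25a followed by a digit. That gave 64 of the 14323 genes in the count table, of which 23 belong to import (14 Timm and 9 Tomm) and 41 are Slc25 carriers. All 64 are protein coding in the GENCODE M21 annotation of mm10.

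Naïve CD8+ T cells, gated as TCRβ+CD8+CD44- and on 1 further surface marker of naïve cells, came from spleens of 3 mice, wild type by genotype, and were cultured for 6 h at 100000 cells per well on immobilized antibody. The unstimulated isotype group received isotype control only, and the unstimulated anti-LAIR-1 group received the agonistic anti-LAIR-1 antibody 2C7 with isotype control. Both remaining groups received anti-CD3ε (145-2C11), one with isotype control and one with anti-LAIR-1, and each antibody was coated at 2.5 µg/ml. Every mouse gave 1 library to each group (n = 3 per group, 12 in all). The mice were adult and C57BL/6N, which the study's methods give for all its experiments together. LAIR-1 is an inhibitory receptor for collagen, and the study asked what its ligation changes in T cells.

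Mitochondria make only a few of their proteins themselves and import the rest from the cytosol. Precursors pass the outer membrane through the TOM complex, and then either enter through the TIM23 complex, which reads cleavable presequences, or are escorted by the small TIM chaperones to the TIM22 complex, which inserts multi-pass proteins into the inner membrane. The Slc25 carriers are such proteins, so that they are both the best known cargo of the TIM22 route and the proteins through which nucleotides, amino acids, carboxylates, cofactors and metals cross that membrane. T cells that leave quiescence after receptor ligation enlarge and remodel their mitochondria.

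Library totals ranged from 1781218 to 7725545 counts, so that 3 counts amounted to 0.388 to 1.68 CPM (counts as a share of library size, with TMM normalization). The reads lie near the 3′ end of each transcript, so CPM is not divided by transcript length, and a comparison of levels between genes is a comparison of transcript counts. The summed level of 6 naïve CD8 T cell markers was 4716 to 5109 CPM in the unstimulated libraries, 1267 to 1392 CPM with anti-CD3 and isotype, and 1581 to 1831 CPM with anti-CD3 and anti-LAIR-1. Summed B cell markers (4 genes) stayed at or under 9.68 CPM and CD4 T cell markers (3 genes) at or under 4.84 CPM in every library. Anti-CD3 raised the activation genes Il2ra by 5.00, Myc by 3.94 and Cd69 by 2.69 on the log2 scale in the isotype arm. Transcripts of the mitochondrial genome took 17.6% to 20.9% of counts in unstimulated and 11.5% to 13.2% in anti-CD3 libraries. Leaving them and Rn45s out of the fits moved the log2 fold changes by a median of -0.00 in both anti-CD3 comparisons. The part of this difference in the results below was not tested otherwise. These are bulk libraries, in which a CPM is a share of the library, and fewer cells of a type and less RNA per cell cannot be told apart.

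Anti-CD3 raised nearly the whole import machinery, while carriers rose and fell in shares near those of all genes. With isotype control, 22 import genes had enough counts to be tested, of which 20 rose, none fell and 2 did not pass. Of 34 carriers tested, 13 rose, 12 fell and 9 did not pass. Over all 8690 genes tested, 71.3% passed, 35.3% higher and 36.1% lower (edgeR quasi-likelihood F-test, Benjamini-Hochberg adjusted p under 0.05), against 90.9% and 0% of the import genes and 38.2% and 35.3% of the carriers. The median log2 fold change was 1.32 for import (range 0.14 to 2.97), -0.12 for carriers (range -4.38 to 3.44) and -0.03 for all genes. All 3 anti-CD3 libraries lay above all 3 unstimulated ones for 21 of the 22 import genes and 14 of 34 carriers, where 37.8% of all genes did so, and under them for 13 carriers, where 35.7% did so. Among import genes the groups overlapped with isotype for Timm21 and with anti-LAIR-1 for Tomm34, and among the carriers that passed they overlapped with isotype for Slc25a10 and with anti-LAIR-1 for Slc25a10 and Slc25a16.

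**Figure D1:**
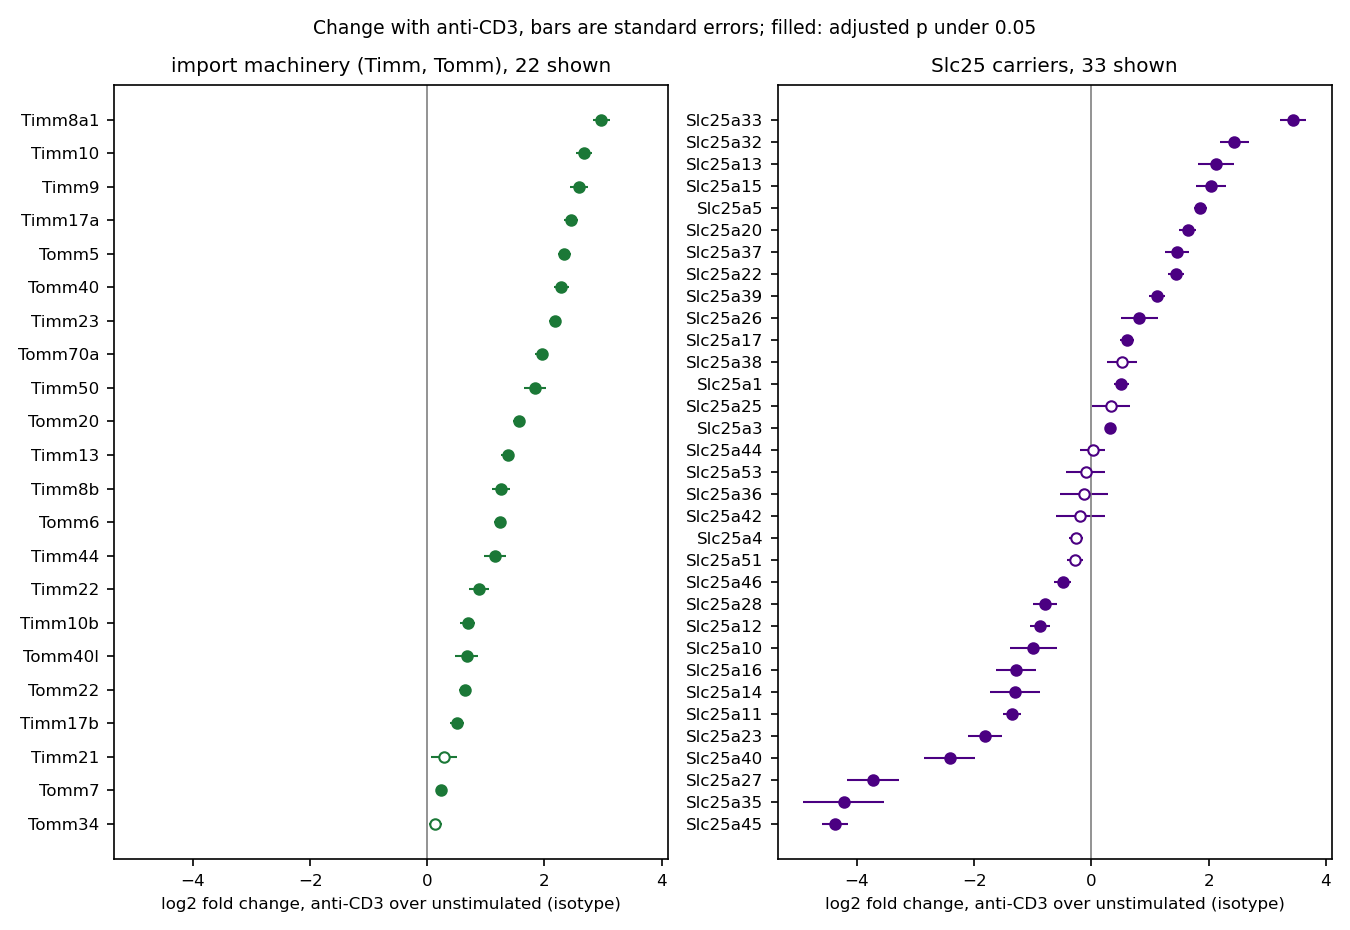
Log2 fold change of the tested genes (1 carrier is not shown) with anti-CD3 over unstimulated in the isotype arm, with its standard error, for import genes and Slc25 carriers. Import genes lie between 0.14 and 2.97, all above 0, and carriers spread from -4.38 to 3.44 around it.

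Summed over the 23 import genes, RNA amounted to 1389, 1356 and 1383 CPM in the unstimulated isotype libraries and 3848, 3916 and 4003 CPM with anti-CD3. In the anti-LAIR-1 libraries the sum was 1317, 1280 and 1349 CPM without and 3729, 3649 and 3682 CPM with anti-CD3. The import sum was thus 2.85-fold higher with anti-CD3 in the isotype arm and 2.80-fold higher in the anti-LAIR-1 arm.

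The 41 carriers summed to 1431, 1379 and 1568 CPM unstimulated and 2799, 2682 and 2877 CPM with anti-CD3 in the isotype arm, and to 1323, 1385 and 1388 and 2768, 2713 and 2790 CPM in the anti-LAIR-1 arm. Much of that gain was 1 gene, Slc25a5, which encodes the ADP/ATP carrier ANT2 (adenine nucleotide translocase 2) and lies on chromosome X from 36795651 to 36798807 in mm10. It made up 25.7% ± 3.09 of carrier CPM in unstimulated isotype libraries and 50.4% ± 1.16 with anti-CD3 (SD, n = 3), and 22.5% ± 1.16 and 50.0% ± 0.783 with anti-LAIR-1. Without it the other 40 carriers went from 1082 ± 27.7 to 1382 ± 23.1 CPM with isotype, a 1.28-fold difference, and from 1058 ± 35.5 to 1380 ± 33.9 CPM with anti-LAIR-1, 1.30-fold. Import RNA stood at 1.27 times the RNA of these 40 carriers in unstimulated isotype libraries and at 2.84 times with anti-CD3. Both ratios cover only genes taken by name, so that Ucp2 (uncoupling protein 2), among the other transporters below, is not in them. Ucp2 alone stood at 682 ± 138 CPM in unstimulated isotype libraries and at 614 ± 25.5 CPM with anti-CD3.

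**Figure D2:**
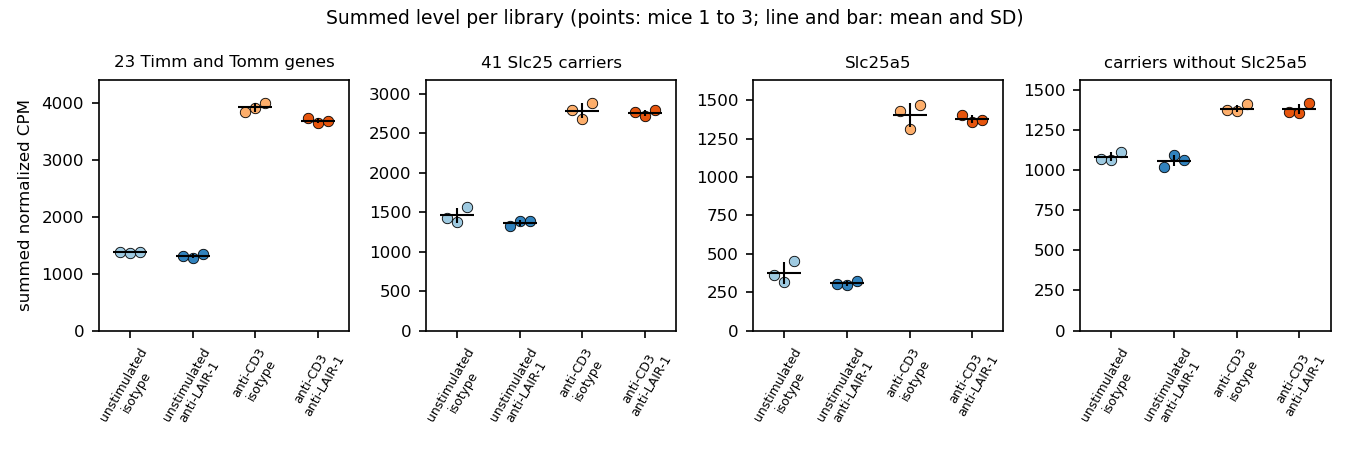
Summed normalized CPM per library of the 23 import genes, the 41 carriers, Slc25a5 alone and the 40 other carriers in the 4 conditions, with the mean and SD of 3 mice. The 6 anti-CD3 libraries lie above the 6 unstimulated ones in every panel, and the step is smallest without Slc25a5.

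Since import genes moved together and the carriers did not, their promoters were read for known motifs, with both strands searched. A RefSeq promoter window (GRCm38.p6, 250 bases before to 50 after the start) was at hand for 20 of 23 import genes (22 windows) and 31 of 41 carriers (40 windows). The E-box CACGTG, bound by Myc and other basic helix-loop-helix factors, stood on either strand in 4 import windows (18.2%) and 7 carrier windows (17.5%), where 7.15% of all windows and 11.0% of the windows of tested genes held it. The carriers that rose with isotype had it in 4 of 13 windows and those that fell in 2 of 12, both of Slc25a14. Among all genes that rose with isotype, 13.8% of windows held it. The E-box is shown in capitals, read 5′ to 3′ on the gene's strand. The genes shown had a log2 fold change with isotype over 1 in size and the E-box before their RefSeq start. By GENCODE the E-box of Slc25a33 lies in the first exon of that gene. The Slc25a15 stretch lies within its gene by GENCODE, outside the exons.
Timm8a1, chrX:134541889-134541918, minus strand: ccttcagtggacCACGTGggatgaagcaac
Timm9, chr12:71136701-71136760, minus strand: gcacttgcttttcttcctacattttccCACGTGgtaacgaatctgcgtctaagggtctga
Tomm20, chr8:126946015-126946074, minus strand: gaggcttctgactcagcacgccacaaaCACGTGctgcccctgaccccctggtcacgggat
Slc25a33, chr4:149774268-149774297, minus strand: gacgtcacggcccggcctccgcCACGTGac
Slc25a13, chr6:6217266-6217325, minus strand: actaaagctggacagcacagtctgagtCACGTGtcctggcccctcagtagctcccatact
Slc25a15, chr8:22398322-22398381, minus strand: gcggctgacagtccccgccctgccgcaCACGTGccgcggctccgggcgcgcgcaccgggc
Slc25a14, chrX:48623382-48623411, plus strand: tccacctccctcCACGTGacgccccaccca

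Of the genes shown, Slc25a14 fell with isotype and the rest rose, but they were picked by the size of that fold change. The cut left out Slc25a1 (0.51) and Slc25a36 (-0.13, which did not pass), which also had the E-box before their RefSeq start. Shares of the ETS and CCAAT letters lay further apart between the families than that of the E-box. The ETS letters CCGGAAGT stood in 5 of 22 import windows (22.7%, of Timm10, Timm10b, Timm23, Timm8a2 and Tomm70a) and 1 of 40 carrier windows (2.50%, Slc25a20), beside 9.67% of the windows of tested genes. The motif of nuclear respiratory factor 1 was in 2 import windows (9.09%) and 1 carrier window (2.50%), beside 11.5%. CCAAT stood in 27.3% of import and 52.5% of carrier windows, beside 37.7%, and TGATGNAA, the letters of an ATF4 site, in none of either, beside 2.13%. These matches describe letters within the windows and say nothing of binding.

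Of the TOM complex, the pore and its small subunits all rose with anti-CD3 and isotype (6 of 6 tested). Tomm40 forms the pore itself. Tomm40 RNA was at 54.8, 46.4 and 47.9 CPM in the unstimulated isotype libraries and at 235, 274 and 241 CPM with anti-CD3. With anti-LAIR-1, Tomm40 was at 53.7, 54.3 and 59.8 CPM without and at 284, 228 and 263 CPM with anti-CD3. The anti-CD3 libraries lay above the unstimulated ones in both arms, by 2.29 ± 0.12 (SE) on the log2 scale with isotype and by 2.20 ± 0.10 in the other arm. Its paralog Tomm40l moved far less. Tomm40l stood at 18.5, 13.8 and 17.8 CPM unstimulated and 26.9, 24.3 and 30.5 CPM with anti-CD3 in the isotype arm. The anti-LAIR-1 Tomm40l levels were 19.1, 22.0 and 19.2 CPM unstimulated and 26.9, 26.0 and 22.6 CPM with anti-CD3. The groups did not overlap in either arm, but the difference of 0.67 ± 0.20 with isotype passed the test (edgeR adjusted p = 0.00446) and that of 0.32 ± 0.16 with anti-LAIR-1 did not (adjusted p = 0.0675). Tomm22 organizes the complex and receives precursors. In isotype libraries Tomm22 reached 105, 97.8 and 99.0 CPM without and 166, 157 and 162 CPM with anti-CD3. In anti-LAIR-1 libraries Tomm22 reached 107, 89.2 and 85.7 CPM without and 156, 157 and 153 CPM with anti-CD3. It rose by 0.64 ± 0.10 with isotype, one of the smaller changes in the complex.

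The small subunits Tomm5, Tomm6 and Tomm7 sit around the pore and tune its assembly. Tomm5 RNA was at 61.1, 62.3 and 56.0 CPM in the unstimulated isotype libraries and at 303, 309 and 326 CPM with anti-CD3. With anti-LAIR-1, Tomm5 was at 54.2, 56.1 and 48.1 CPM without and at 267, 288 and 247 CPM with anti-CD3. Tomm5 rose by 2.34 ± 0.11 with isotype and was the most strongly raised of the group. Tomm6 stood at 112, 125 and 120 CPM unstimulated and 285, 264 and 315 CPM with anti-CD3 in the isotype arm. The anti-LAIR-1 Tomm6 levels were 109, 90.0 and 102 CPM unstimulated and 267, 283 and 297 CPM with anti-CD3. Its rise was 1.24 ± 0.10 on the log2 scale, and the Tomm6 exons overlap those of Usp49 on the opposite strand. In isotype libraries Tomm7 reached 168, 165 and 170 CPM without and 197, 206 and 206 CPM with anti-CD3. In anti-LAIR-1 libraries Tomm7 reached 136, 149 and 136 CPM without and 187, 208 and 254 CPM with anti-CD3. Tomm7, already among the highest import genes before stimulation, rose by only 0.24 ± 0.09 with isotype (edgeR adjusted p = 0.0266), a call lost without the unstimulated isotype library of mouse 2 (log2 fold change 0.22, adjusted p = 0.0645).

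Tomm20 and Tomm70a are the receptors that face the cytosol, the first for presequences and the second for carriers and other precursors handed over by chaperones. Tomm20 RNA was at 191, 185 and 175 CPM in the unstimulated isotype libraries and at 547, 566 and 552 CPM with anti-CD3. With anti-LAIR-1, Tomm20 was at 197, 189 and 186 CPM without and at 523, 508 and 509 CPM with anti-CD3. Tomm20 was the most abundant import transcript on average, at 361 CPM over the 12 libraries, and rose by 1.56 ± 0.09 with isotype. Tomm70a stood at 59.8, 56.2 and 53.3 CPM unstimulated and 222, 210 and 241 CPM with anti-CD3 in the isotype arm. The anti-LAIR-1 Tomm70a levels were 61.7, 56.1 and 66.8 CPM unstimulated and 213, 214 and 222 CPM with anti-CD3. Tomm70a rose more, by 1.95 ± 0.11, with no overlap between groups in either arm. Tomm34, a cytosolic co-chaperone that carries the family name but is no part of the pore, was the exception. In isotype libraries Tomm34 reached 126, 139 and 130 CPM without and 143, 163 and 141 CPM with anti-CD3. In anti-LAIR-1 libraries Tomm34 reached 127, 134 and 143 CPM without and 147, 127 and 159 CPM with anti-CD3. Its differences in the isotype and anti-LAIR-1 arms, 0.14 ± 0.11 and 0.09 ± 0.10, did not pass the test (edgeR adjusted p = 0.236 and 0.415).

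In the TIM23 complex, 5 of 6 tested genes rose with isotype. Timm23 forms the channel for presequence proteins. Timm23 RNA was at 98.8, 92.9 and 124 CPM in the unstimulated isotype libraries and at 479, 469 and 502 CPM with anti-CD3. With anti-LAIR-1, Timm23 was at 91.3, 83.9 and 101 CPM without and at 439, 423 and 397 CPM with anti-CD3. It rose by 2.18 ± 0.11, and the anti-CD3 libraries held more than 3 times the level of any unstimulated one. Timm17a and Timm17b are alternative partners of Timm23 in the channel. Timm17a stood at 32.7, 31.0 and 33.4 CPM unstimulated and 178, 186 and 185 CPM with anti-CD3 in the isotype arm. The anti-LAIR-1 Timm17a levels were 26.0, 31.2 and 43.3 CPM unstimulated and 152, 153 and 146 CPM with anti-CD3. Timm17a rose by 2.46 ± 0.12 with isotype. In isotype libraries Timm17b reached 58.8, 62.3 and 60.3 CPM without and 88.5, 90.1 and 83.7 CPM with anti-CD3. In anti-LAIR-1 libraries Timm17b reached 62.8, 62.5 and 58.5 CPM without and 96.0, 88.8 and 97.7 CPM with anti-CD3. Timm17b, the more abundant of the pair in every unstimulated library, rose by 0.50 ± 0.12 and was the less abundant of them in every anti-CD3 library.

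Timm50 is the receptor of the TIM23 complex, Timm44 anchors the import motor on its inner face, and Timm21 links it to the TOM complex. Timm50 RNA was at 13.2, 11.0 and 10.2 CPM in the unstimulated isotype libraries and at 42.3, 44.9 and 41.6 CPM with anti-CD3. With anti-LAIR-1, Timm50 was at 9.68, 7.94 and 8.01 CPM without and at 39.9, 46.2 and 40.0 CPM with anti-CD3. Timm50 rose by 1.84 ± 0.19 with isotype. Timm44 stood at 17.8, 29.7 and 29.1 CPM unstimulated and 60.1, 66.2 and 45.1 CPM with anti-CD3 in the isotype arm. The anti-LAIR-1 Timm44 levels were 30.1, 31.0 and 32.6 CPM unstimulated and 51.3, 45.1 and 45.5 CPM with anti-CD3. Timm44 rose by 1.15 ± 0.19. In isotype libraries Timm21 reached 21.8, 20.8 and 12.4 CPM without and 19.9, 26.9 and 22.8 CPM with anti-CD3. In anti-LAIR-1 libraries Timm21 reached 17.4, 14.6 and 17.6 CPM without and 24.5, 24.0 and 23.5 CPM with anti-CD3. For Timm21 the isotype groups overlapped and the difference of 0.28 ± 0.22 did not pass (edgeR adjusted p = 0.254), whereas with anti-LAIR-1 they did not overlap and it rose by 0.53 ± 0.16 (adjusted p = 0.00602). The interaction of the antibodies for Timm21 was 0.22 ± 0.27 (edgeR adjusted p = 0.809), so that no difference between the arms was shown.

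The carrier route, TIM22 with its small TIM chaperones, rose throughout, in 7 of 7 tested genes and both arms. Timm8a1, one of the genes with an E-box shown above, is an intermembrane-space chaperone encoded on chromosome X from 134537256 to 134541865 in mm10, and it had the highest fold change of all import genes. Timm8a1 RNA was at 33.4, 21.2 and 26.9 CPM in the unstimulated isotype libraries and at 215, 224 and 223 CPM with anti-CD3. With anti-LAIR-1, Timm8a1 was at 23.5, 19.1 and 24.6 CPM without and at 202, 205 and 194 CPM with anti-CD3. It rose by 2.97 ± 0.14 with isotype and 3.16 ± 0.11 with anti-LAIR-1, a 7.83-fold and 8.91-fold difference. Timm9 and Timm10 together form the ring that carries Slc25 precursors across the intermembrane space. Timm10 stood at 42.3, 32.2 and 24.7 CPM unstimulated and 225, 204 and 237 CPM with anti-CD3 in the isotype arm. The anti-LAIR-1 Timm10 levels were 30.4, 32.6 and 41.7 CPM unstimulated and 227, 209 and 168 CPM with anti-CD3. The anti-CD3 libraries stood well clear of the unstimulated ones. In isotype libraries Timm9 reached 12.2, 11.4 and 16.7 CPM without and 82.7, 77.5 and 83.2 CPM with anti-CD3. In anti-LAIR-1 libraries Timm9 reached 12.2, 11.4 and 19.2 CPM without and 72.2, 85.0 and 73.0 CPM with anti-CD3. The same separation held for Timm9 at lower levels. They rose by 2.67 ± 0.14 and 2.59 ± 0.16 with isotype, close to each other, although Timm10 RNA was the more abundant in all 12 libraries.

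Timm13 partners Timm8a1 in a second chaperone ring, and Timm8b is a paralog of Timm8a1. Timm13 RNA was at 55.5, 57.0 and 51.6 CPM in the unstimulated isotype libraries and at 138, 147 and 152 CPM with anti-CD3. With anti-LAIR-1, Timm13 was at 53.4, 58.3 and 55.0 CPM without and at 147, 136 and 161 CPM with anti-CD3. Both arms separated fully. Timm8b stood at 31.7, 21.6 and 30.7 CPM unstimulated and 69.1, 67.1 and 69.7 CPM with anti-CD3 in the isotype arm. The anti-LAIR-1 Timm8b levels were 22.1, 17.2 and 26.4 CPM unstimulated and 63.3, 65.3 and 65.6 CPM with anti-CD3. Timm8b separated as well. Their rises with isotype, 1.37 ± 0.11 and 1.26 ± 0.15, were smaller than that of Timm8a1. Timm22, the insertase that places carriers in the membrane, and Timm10b, which docks the chaperones on it, came last in this group. In isotype libraries Timm22 reached 18.5, 22.4 and 21.5 CPM without and 35.6, 41.5 and 39.5 CPM with anti-CD3. In anti-LAIR-1 libraries Timm22 reached 15.5, 15.4 and 16.3 CPM without and 39.3, 30.0 and 34.9 CPM with anti-CD3. Its lowest anti-CD3 library was above the highest unstimulated one in either arm. Timm10b RNA was at 55.8, 52.1 and 71.0 CPM in the unstimulated isotype libraries and at 89.7, 98.6 and 103 CPM with anti-CD3. With anti-LAIR-1, Timm10b was at 56.4, 55.3 and 56.1 CPM without and at 102, 98.5 and 108 CPM with anti-CD3. Timm10b was the more abundant of them in every library. They rose by 0.88 ± 0.17 and 0.69 ± 0.13, smaller fold changes than those of the soluble chaperones Timm8a1, Timm9 and Timm10. Timm8a2, a paralog of Timm8a1, reached at most 1.61 CPM in any library and was not tested.

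**Figure D3:**
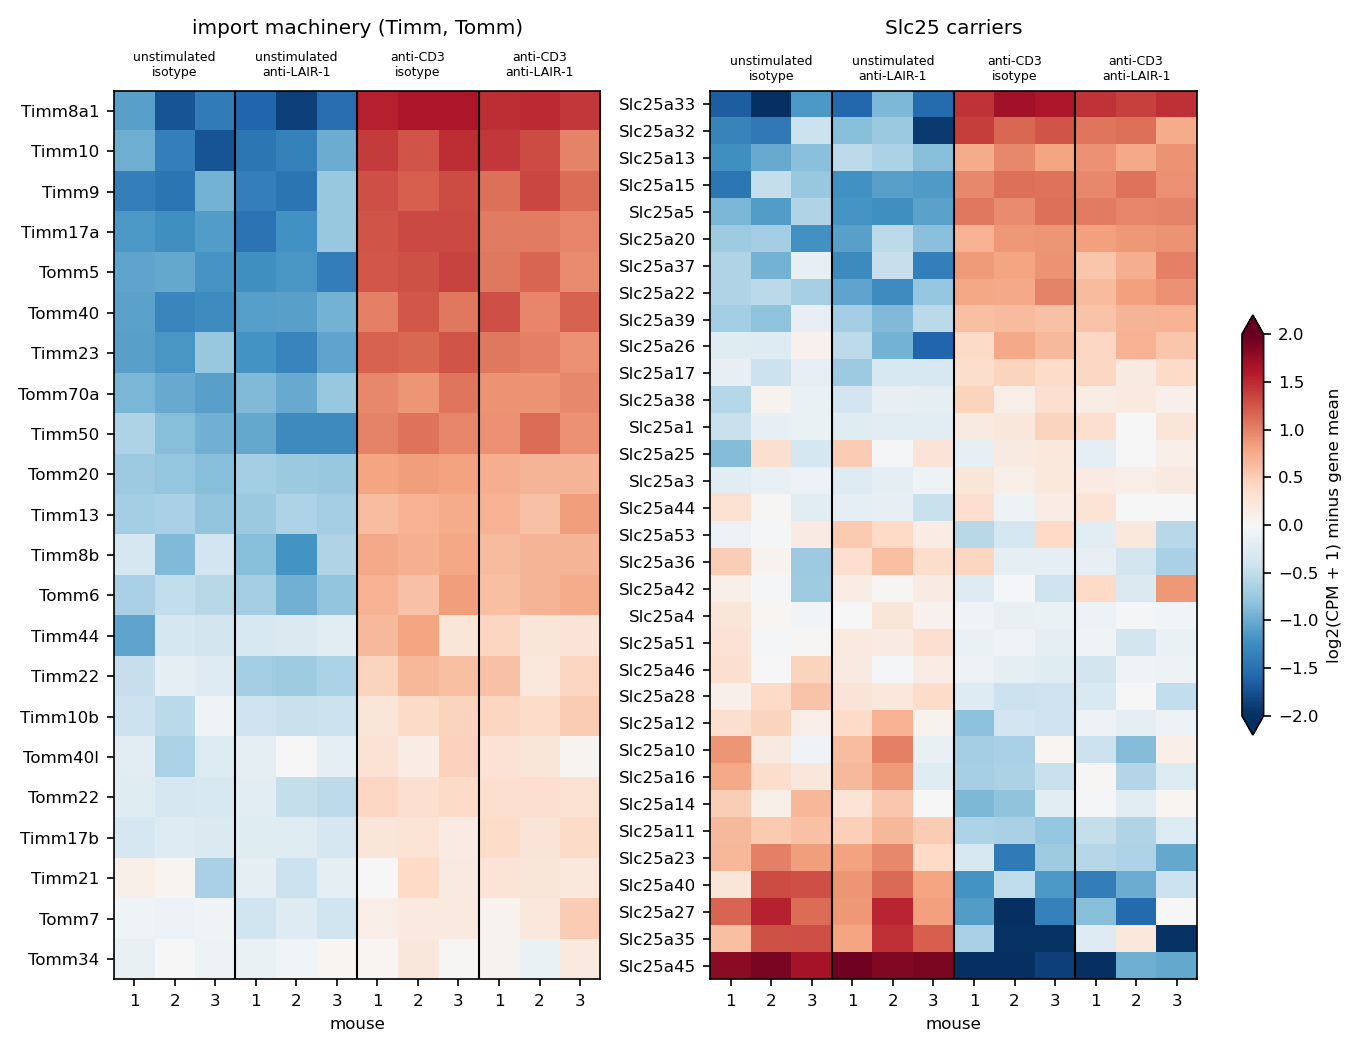
The log2(CPM + 1) of the tested genes of both families (1 carrier is not shown) in the 12 libraries minus the gene's mean, by mouse and condition. The import genes change together between the unstimulated and the anti-CD3 libraries. The carriers, ordered by fold change, run from higher to lower with anti-CD3.

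Other import factors that the name rule leaves out moved in the same direction. Of 22 tested genes on a list of 23, 16 rose with anti-CD3 and isotype (72.7%), 1 fell (4.55%) and 5 did not pass. Of all genes, 35.3% rose and 36.1% fell. The median log2 fold change of the list was 1.20. The matrix chaperonin Hspd1 rose by 2.99 and its cofactor Hspe1 by 1.89, the motor chaperone Hspa9 by 2.21, and Chchd4, which oxidizes small TIMs on entry, by 2.91. Dnajc15, a cochaperone of the motor, was the gene that fell, by 0.36 on the log2 scale. Its paralog Dnajc19 rose by 1.29.

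The carriers went both ways within most substrate groups, as they did in all, in shares near those of all genes. Among those for nucleotides and phosphate, 3 rose, 1 fell and 3 did not pass with isotype. Slc25a33 also had an E-box just before its RefSeq start, inside its first exon by GENCODE. It is a pyrimidine nucleotide carrier on chromosome 4 from 149744036 to 149774277 in mm10. With isotype it had the highest fold change of all tested genes of both families. Slc25a33 stood at 4.62, 2.85 and 6.99 CPM unstimulated and 47.1, 55.4 and 53.5 CPM with anti-CD3 in the isotype arm. The anti-LAIR-1 Slc25a33 levels were 4.98, 8.47 and 5.07 CPM unstimulated and 47.3, 44.5 and 47.6 CPM with anti-CD3. Every anti-CD3 library lay above every unstimulated one, by 3.44 ± 0.23 with isotype and 2.90 ± 0.19 with anti-LAIR-1, which is 10.9-fold and 7.44-fold. Slc25a36, its closest relative and also a pyrimidine nucleotide carrier, did not follow. It too had an E-box, 181 bases before its RefSeq start. In isotype libraries Slc25a36 reached 6.28, 4.48 and 2.15 CPM without and 6.04, 3.60 and 3.53 CPM with anti-CD3. In anti-LAIR-1 libraries Slc25a36 reached 5.53, 6.88 and 5.61 CPM without and 3.64, 3.04 and 2.33 CPM with anti-CD3. Its isotype groups overlapped (-0.13 ± 0.41, edgeR adjusted p = 0.783), and with anti-LAIR-1 it fell by 0.97 ± 0.32 on the log2 scale (adjusted p = 0.0102).

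Slc25a5 and Slc25a4 are the ADP/ATP carriers ANT2 and ANT1. Slc25a5 RNA was at 363, 314 and 454 CPM in the unstimulated isotype libraries and at 1428, 1315 and 1468 CPM with anti-CD3. With anti-LAIR-1, Slc25a5 was at 302, 294 and 326 CPM without and at 1404, 1357 and 1371 CPM with anti-CD3. Slc25a5 was the most abundant of the 64 transcripts, at 866 CPM on average, and rose by 1.86 ± 0.11 with isotype and 2.16 ± 0.07 with anti-LAIR-1. Slc25a4 stood at 84.6, 73.3 and 68.9 CPM unstimulated and 67.3, 63.9 and 64.7 CPM with anti-CD3 in the isotype arm. The anti-LAIR-1 Slc25a4 levels were 71.6, 84.7 and 76.1 CPM unstimulated and 65.4, 70.4 and 68.3 CPM with anti-CD3. Slc25a4 lay a little lower with anti-CD3 in both arms with no overlap, but differences of -0.26 ± 0.12 and -0.20 ± 0.10 did not pass (edgeR adjusted p = 0.0627 and 0.0912). With isotype Slc25a4 passed in the fit of all 12 libraries (edgeR adjusted p = 0.0398) and without the unstimulated library of mouse 3 (-0.32, adjusted p = 0.0343). Slc25a3 supplies phosphate for ATP synthesis. In isotype libraries Slc25a3 reached 241, 253 and 257 CPM without and 331, 304 and 323 CPM with anti-CD3. In anti-LAIR-1 libraries Slc25a3 reached 233, 247 and 260 CPM without and 315, 302 and 318 CPM with anti-CD3. It rose by 0.32 ± 0.09 with isotype. A pseudogene, Slc25a5-ps, is named after Slc25a5, and reads that fit both equally well were discarded by the authors.

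Slc25a23, Slc25a24 and Slc25a25 exchange ATP-Mg for phosphate under control of calcium. Slc25a23 RNA was at 16.5, 21.2 and 18.8 CPM in the unstimulated isotype libraries and at 7.85, 3.17 and 5.78 CPM with anti-CD3. With anti-LAIR-1, Slc25a23 was at 18.3, 20.7 and 13.6 CPM without and at 6.46, 6.24 and 4.44 CPM with anti-CD3. Slc25a23 fell by 1.81 ± 0.29 on the log2 scale with isotype and by 1.59 ± 0.23 with anti-LAIR-1, with no overlap. Slc25a25 stood at 4.62, 11.8 and 6.99 CPM unstimulated and 8.15, 10.6 and 10.8 CPM with anti-CD3 in the isotype arm. The anti-LAIR-1 Slc25a25 levels were 13.6, 9.0 and 11.2 CPM unstimulated and 7.94, 9.28 and 10.2 CPM with anti-CD3. Slc25a25 overlapped between groups in both arms, and neither difference passed. In isotype libraries Slc25a24 reached 3.63, 6.52 and 1.08 CPM without and 0, 0.635 and 0.642 CPM with anti-CD3. In anti-LAIR-1 libraries Slc25a24 reached 0.830, 2.12 and 3.47 CPM without and 0.673, 0.506 and 0.212 CPM with anti-CD3. With so few counts Slc25a24 was not tested in either anti-CD3 comparison.

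Amino acid carriers moved more often up than down, with 4 that rose, 1 that fell and 2 that did not pass with isotype, the carnitine carrier included. Slc25a12 and Slc25a13 both export aspartate in exchange for glutamate as part of the malate-aspartate shuttle, and they moved in opposite directions. Slc25a13 RNA was at 2.64, 3.26 and 3.77 CPM in the unstimulated isotype libraries and at 13.3, 15.7 and 13.8 CPM with anti-CD3. With anti-LAIR-1, Slc25a13 was at 4.98, 4.50 and 3.74 CPM without and at 15.2, 13.5 and 15.0 CPM with anti-CD3. All 6 anti-CD3 libraries were higher than all 6 unstimulated ones. Slc25a12 stood at 45.3, 49.3 and 39.3 CPM unstimulated and 19.9, 27.3 and 26.7 CPM with anti-CD3 in the isotype arm. The anti-LAIR-1 Slc25a12 levels were 47.3, 58.5 and 37.7 CPM unstimulated and 33.4, 31.2 and 33.0 CPM with anti-CD3. Here all 6 were lower. Slc25a13 rose by 2.13 ± 0.31 with isotype while Slc25a12 fell by 0.88 ± 0.17. With anti-LAIR-1 the changes were 1.72 ± 0.24 and -0.56 ± 0.15, and Slc25a12 RNA remained the more abundant in all 12 libraries.

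Slc25a15 moves ornithine, Slc25a22 glutamate and Slc25a20 acylcarnitines for fatty acid oxidation. In isotype libraries Slc25a15 reached 4.29, 9.37 and 7.53 CPM without and 27.2, 30.0 and 29.7 CPM with anti-CD3. In anti-LAIR-1 libraries Slc25a15 reached 5.26, 5.83 and 5.61 CPM without and 27.1, 29.7 and 26.4 CPM with anti-CD3. It rose by 2.04 ± 0.25 with isotype, with no overlap. Slc25a20 RNA was at 27.1, 27.7 and 18.8 CPM in the unstimulated isotype libraries and at 73.4, 83.0 and 83.4 CPM with anti-CD3. With anti-LAIR-1, Slc25a20 was at 20.5, 31.0 and 24.6 CPM without and at 79.6, 83.0 and 84.8 CPM with anti-CD3. Slc25a20 rose by 1.64 ± 0.15. Slc25a22 stood at 28.1, 29.3 and 26.9 CPM unstimulated and 74.3, 73.6 and 86.7 CPM with anti-CD3 in the isotype arm. The anti-LAIR-1 Slc25a22 levels were 20.2, 17.5 and 24.8 CPM unstimulated and 67.1, 76.8 and 82.5 CPM with anti-CD3. Slc25a22 rose by 1.44 ± 0.14, so that all 3 genes were over 2-fold higher with anti-CD3 in either arm. Slc25a38, a glycine carrier needed for heme, and Slc25a44, a carrier of branched-chain amino acids, gave log2 fold changes of 0.52 ± 0.26 and 0.02 ± 0.22 with isotype, and neither passed (edgeR adjusted p = 0.0822 and 0.939).

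Among carriers of cofactors and metals, 5 rose, 3 fell and 3 did not pass with isotype. Slc25a32 brings in folate, the start of the mitochondrial one-carbon pathway. In isotype libraries Slc25a32 reached 5.29, 4.89 and 10.8 CPM without and 40.2, 34.1 and 36.8 CPM with anti-CD3. In anti-LAIR-1 libraries Slc25a32 reached 7.74, 8.47 and 3.21 CPM without and 32.3, 33.1 and 25.6 CPM with anti-CD3. It rose by 2.44 ± 0.25 with isotype and 2.23 ± 0.24 with anti-LAIR-1. Slc25a39 and Slc25a40 both carry glutathione and moved apart. Slc25a39 RNA was at 98.8, 90.8 and 142 CPM in the unstimulated isotype libraries and at 242, 248 and 239 CPM with anti-CD3. With anti-LAIR-1, Slc25a39 was at 97.6, 86.3 and 109 CPM without and at 237, 255 and 258 CPM with anti-CD3. Slc25a39 was higher in each anti-CD3 library. Slc25a40 stood at 4.95, 11.4 and 11.3 CPM unstimulated and 1.21, 2.54 and 1.28 CPM with anti-CD3 in the isotype arm. The anti-LAIR-1 Slc25a40 levels were 8.30, 10.1 and 7.75 CPM unstimulated and 0.943, 1.52 and 2.75 CPM with anti-CD3. Slc25a40 was lower in each. Slc25a39 rose by 1.12 ± 0.13 with isotype, and the much scarcer Slc25a40 fell by 2.42 ± 0.44.

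The mitoferrins Slc25a37 and Slc25a28 import iron. In isotype libraries Slc25a37 reached 11.6, 8.96 and 16.1 CPM without and 33.8, 32.2 and 35.0 CPM with anti-CD3. In anti-LAIR-1 libraries Slc25a37 reached 6.91, 13.0 and 6.41 CPM without and 27.2, 30.7 and 37.7 CPM with anti-CD3. It was higher in every anti-CD3 library. Slc25a28 RNA was at 20.1, 24.4 and 28.0 CPM in the unstimulated isotype libraries and at 15.4, 13.5 and 13.7 CPM with anti-CD3. With anti-LAIR-1, Slc25a28 was at 22.4, 21.7 and 24.3 CPM without and at 14.9, 18.7 and 12.9 CPM with anti-CD3. Within each arm Slc25a28 was lower in every anti-CD3 library. Slc25a37 rose by 1.46 ± 0.21 and Slc25a28 fell by 0.79 ± 0.21 with isotype, and their changes in the other arm were 1.84 and -0.55. Their order thus turned, since Slc25a28 was the more abundant in all 6 unstimulated libraries and Slc25a37 in all 6 anti-CD3 libraries. Slc25a16 stood at 10.6, 7.74 and 6.99 CPM unstimulated and 3.32, 3.39 and 4.02 CPM with anti-CD3 in the isotype arm. The anti-LAIR-1 Slc25a16 levels were 9.68, 11.4 and 4.81 CPM unstimulated and 5.92, 3.54 and 4.65 CPM with anti-CD3. Slc25a16, linked to coenzyme A transport, fell by 1.28 ± 0.34 with isotype without overlap and by 0.86 ± 0.32 with anti-LAIR-1, where the groups overlapped and leaving out the unstimulated libraries of mouse 1 or 2 or the anti-CD3 library of mouse 2 lost the call (log2 fold change -0.76 to -0.61). The peroxisomal member Slc25a17 rose by 0.61 ± 0.12. Slc25a26, which carries S-adenosylmethionine, rose by 0.82 ± 0.31 with isotype (edgeR adjusted p = 0.0203), a call lost by DESeq2 (adjusted p = 0.0634) and without the isotype libraries of mouse 1 or 2 unstimulated or of mouse 2 or 3 with anti-CD3 (log2 fold change 0.75 to 0.83). With anti-LAIR-1 it rose by 1.82 ± 0.33 (edgeR adjusted p = 6.5e-05), a call kept in all 12 alternatives, and the difference between the arms did not pass (adjusted p = 0.392). Slc25a51, the NAD+ carrier, and Slc25a42, a coenzyme A carrier, did not pass with isotype, at -0.28 ± 0.13 and -0.19 ± 0.42.

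**Figure D4:**
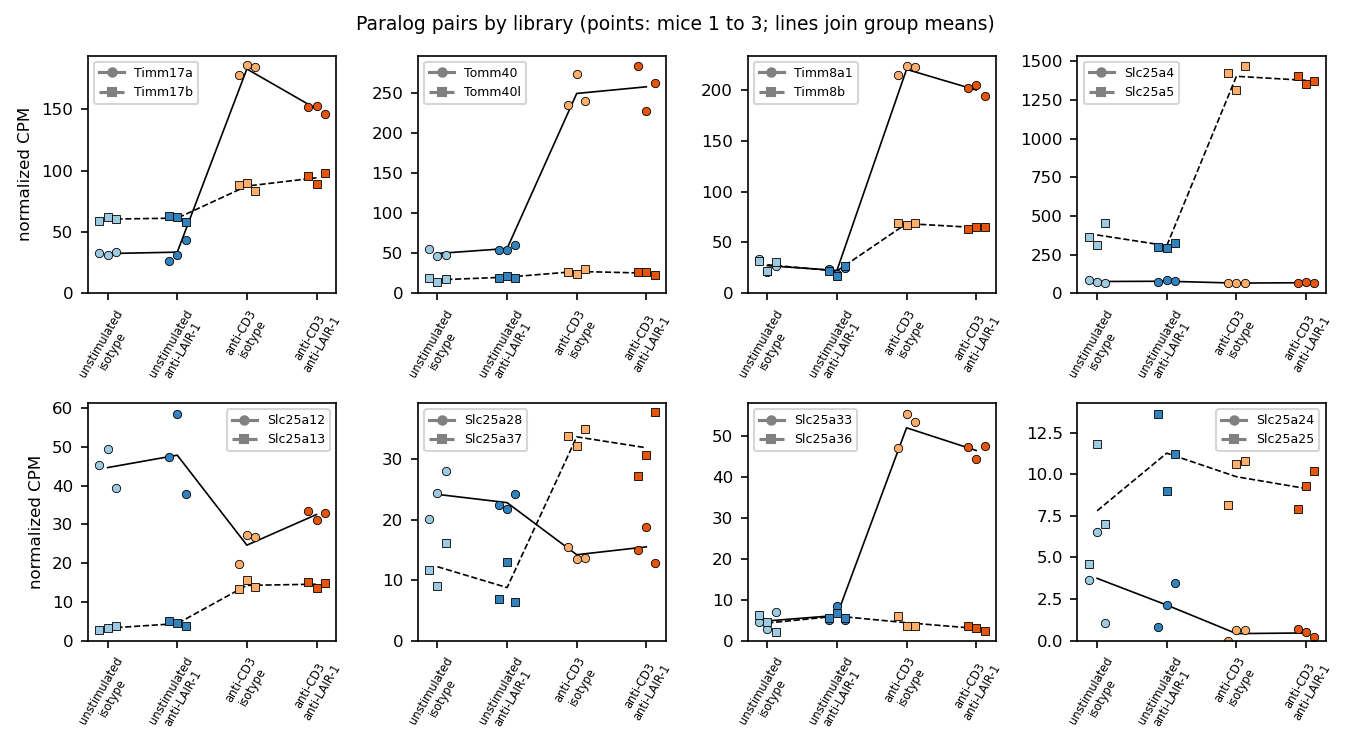
Normalized CPM of paralog pairs in the 4 conditions, with 1 point per mouse and lines through the means. In the pairs Slc25a12 and Slc25a13, Slc25a28 and Slc25a37, and Slc25a33 and Slc25a36, one member is higher and the other is lower or about level with anti-CD3.

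Of the 3 carriers of carboxylates, 1 rose and 2 fell in each arm, and 1 of the 2 that fell had overlapping groups. Slc25a1 exports citrate, the source of cytosolic acetyl-CoA. In isotype libraries Slc25a1 reached 56.2, 68.4 and 69.4 CPM without and 86.6, 90.1 and 104 CPM with anti-CD3. In anti-LAIR-1 libraries Slc25a1 reached 64.2, 66.2 and 65.4 CPM without and 96.4, 76.4 and 90.8 CPM with anti-CD3. It rose by 0.51 ± 0.13 with isotype. Slc25a11, the oxoglutarate carrier that completes the malate-aspartate shuttle, went the other way. Slc25a11 RNA was at 53.8, 49.3 and 51.1 CPM in the unstimulated isotype libraries and at 21.7, 21.2 and 19.4 CPM with anti-CD3. With anti-LAIR-1, Slc25a11 was at 47.3, 54.5 and 48.6 CPM without and at 24.0, 21.9 and 27.9 CPM with anti-CD3. It fell by 1.35 ± 0.15 with isotype and 1.04 ± 0.13 with anti-LAIR-1 on the log2 scale, with no overlap in either arm, and its exons overlap those of Rnf167 on the opposite strand. Slc25a10 stood at 9.25, 5.29 and 4.30 CPM unstimulated and 2.42, 2.54 and 4.66 CPM with anti-CD3 in the isotype arm. The anti-LAIR-1 Slc25a10 levels were 7.47, 10.1 and 4.01 CPM unstimulated and 3.10, 2.02 and 5.08 CPM with anti-CD3. Slc25a10, the dicarboxylate carrier, overlapped between groups, fell by 0.99 ± 0.40 with isotype (edgeR adjusted p = 0.0307) and lost this call by DESeq2 (adjusted p = 0.0816), with no filter on low counts (edgeR adjusted p = 0.0504) and without the unstimulated library of mouse 1 or the anti-CD3 library of mouse 1 or 2 (log2 fold change -0.83 to -0.57). With anti-LAIR-1 Slc25a10 fell by 1.12 ± 0.38 (edgeR adjusted p = 0.0123), a call lost without the unstimulated or the anti-CD3 library of mouse 2 (log2 fold change -0.79 and -0.84).

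With isotype the steepest falls were those of Slc25a45, Slc25a35 and Slc25a27, whereas with anti-LAIR-1 Slc25a40 (-2.40) came after Slc25a45 and before Slc25a27 (-2.20). Slc25a45, on chromosome 19 from 5877808 to 5885878 in mm10, is a carrier for which no role is given here. In isotype libraries Slc25a45 reached 67.4, 72.1 and 60.8 CPM without and 2.42, 2.54 and 4.34 CPM with anti-CD3. In anti-LAIR-1 libraries Slc25a45 reached 74.7, 69.4 and 71.3 CPM without and 3.23, 8.94 and 8.67 CPM with anti-CD3. It fell by 4.38 ± 0.22 with isotype and by 3.44 ± 0.21 with anti-LAIR-1, 20.8-fold and 10.8-fold lower. Slc25a27, also known as uncoupling protein 4, was low before stimulation. Slc25a27 RNA was at 11.2, 14.7 and 10.8 CPM in the unstimulated isotype libraries and at 1.51, 0.212 and 1.12 CPM with anti-CD3. With anti-LAIR-1, Slc25a27 was at 8.85, 14.6 and 8.55 CPM without and at 2.02, 0.844 and 4.44 CPM with anti-CD3. It fell by 3.73 ± 0.44 with isotype, on 1 to 7 counts per anti-CD3 isotype library. Slc25a14 stood at 5.62, 4.07 and 6.46 CPM unstimulated and 1.51, 1.69 and 3.05 CPM with anti-CD3 in the isotype arm. The anti-LAIR-1 Slc25a14 levels were 4.70, 5.83 and 3.74 CPM unstimulated and 3.64, 3.04 and 3.81 CPM with anti-CD3. Slc25a14, another uncoupling-protein-like carrier, fell by 1.30 ± 0.43 with isotype and overlapped with anti-LAIR-1 (-0.45 ± 0.33, edgeR adjusted p = 0.219).

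Slc25a35 is a further carrier for which no role is given, and its exons overlap those of Rangrf on the opposite strand. In isotype libraries Slc25a35 reached 4.95, 8.55 and 8.61 CPM without and 1.51, 0 and 0 CPM with anti-CD3. In anti-LAIR-1 libraries Slc25a35 reached 5.81, 9.80 and 8.01 CPM without and 2.29, 3.54 and 0 CPM with anti-CD3. The isotype libraries with anti-CD3 held 5, 0 and 0 counts against 15, 21 and 16 in the unstimulated ones, a fall that passed the test, and with anti-LAIR-1 it also fell by the edgeR test but not by DESeq2's Wald test. Slc25a46, an outer-membrane member involved in mitochondrial shape, fell by 0.49 ± 0.15 with isotype and differed by -0.30 ± 0.13 with anti-LAIR-1 (edgeR adjusted p = 0.0514). The carriers Slc25a2, Slc25a24, Slc25a29, Slc25a30, Slc25a34, Slc25a43 and Slc25a47 were too low to be tested with isotype.

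Other transporters of the mitochondrial membranes more often rose than fell. Of 13 tested genes on a list of 17, 8 rose (61.5%) and 2 fell (15.4%) with isotype, beside 35.3% and 36.1% of all genes. Their median was 0.43, and 7 rose when the mouse was a block in the fit, without the channel gene Vdac3 (0.25 on the log2 scale). The serine carrier Sfxn1 rose by 1.81, while its relative Sfxn3 fell by 3.23 on the log2 scale.

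The anti-LAIR-1 arm repeats the anti-CD3 comparison in libraries that the isotype arm does not use, although from the same mice. There, 20 of 22 tested import genes rose and none fell, and of 35 carriers 13 rose and 13 fell, where 72.7% of all 9000 genes passed, 36.4% higher and 36.3% lower. Groups did not overlap for 21 import genes that were higher, and for 15 carriers that were higher and 13 that were lower, where the shares of all genes were 37.6% and 37.2%. With the mouse as a block 14 carriers fell, Slc25a53, which has no role given here, being added (-0.58 ± 0.26 without the block, edgeR adjusted p = 0.0438 with it). The median was 1.45 for import, -0.20 for carriers and -0.04 for all genes. Of the 56 genes of both families tested in both arms, 54 had the same sign, and the log2 fold changes of the arms correlated across genes with r = 0.96, where genes are not independent replicates. Past the threshold in both arms were 42 genes, each with the same sign. Slc25a46, Slc25a14 and Tomm40l passed with isotype only, and Slc25a51, Timm21 and Slc25a36 with anti-LAIR-1 only. Slc25a29, a basic amino acid carrier tested in this arm alone, fell by 0.98 ± 0.39. That call was lost by DESeq2 (adjusted p = 0.112) and with no filter on low counts (edgeR adjusted p = 0.120). Leaving out any 1 of the 6 libraries also lost it (log2 fold change -1.08 to -0.77).

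**Figure D5:**
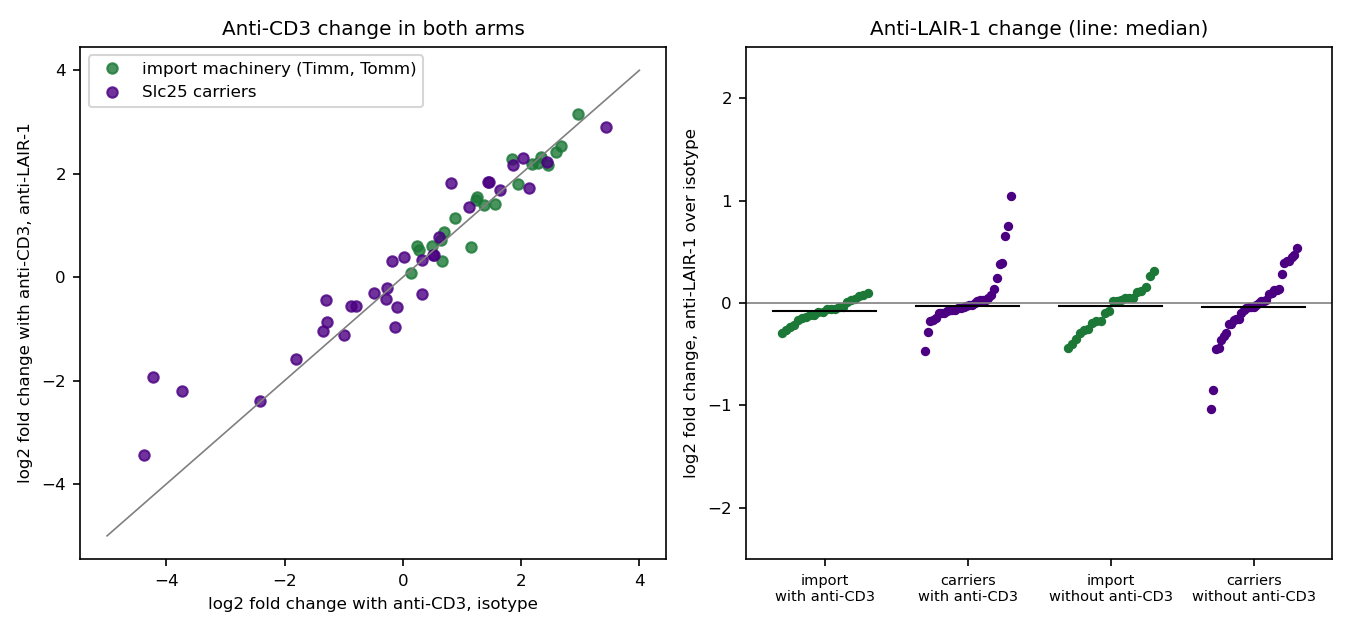
Left, the log2 fold change with anti-CD3 in the isotype arm (x) and the anti-LAIR-1 arm (y) for the tested genes (1 carrier is not shown). Right, the log2 fold change of anti-LAIR-1 over isotype with and without anti-CD3 by family, with the median as a line. Most left points lie near the diagonal. Slc25a35, Slc25a27, Slc25a26, Slc25a45 and Slc25a14 lie farthest above it and Slc25a36 farthest below it, and the right points gather around 0.

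The comparison of anti-LAIR-1 with isotype under anti-CD3 asks how ligation of the receptor alters stimulated cells. Of the 22 import genes tested 1 fell, Timm17a, and none rose, and of 33 carriers none passed, where 5.76% of all 8800 genes passed, 1.86% lower and 3.90% higher. Timm17a lies on chromosome 1 from 135295213 to 135313778 in mm10. As given above, its levels under anti-CD3 were 178, 186 and 185 CPM with isotype and 152, 153 and 146 CPM with anti-LAIR-1, without overlap and lower in 3 of 3 mice. The log2 fold change was -0.29 ± 0.07 (edgeR adjusted p = 0.0258), which is small beside its rise of 2.46 with anti-CD3. The log2 fold change was -0.31 to -0.28 in all 12 alternatives. The call was lost (edgeR adjusted p = 0.0615 to 0.0738) without the isotype library of mouse 2 or 3 or the anti-LAIR-1 library of mouse 1, 2 or 3, and in the fit of all 12 libraries (adjusted p = 0.130). Timm44 passed only when the isotype library of mouse 3 was left out (log2 fold change -0.43, edgeR adjusted p = 0.0478).

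None of the other 21 import genes passed. The median log2 fold change of all 22 was -0.07, where that of all genes was 0.00, with 16 negative and 6 positive, and 3 of the 22 (13.6%) had an unadjusted p under 0.05 against 18.8% of all genes. For 6 of the 22 (27.3%) all anti-LAIR-1 libraries lay under all isotype libraries, where 11.1% of all genes did so. These were Timm17a, Tomm20, Tomm5, Timm23, Timm8a1 and Timm8b, with log2 fold changes between -0.29 and -0.09. The next smallest adjusted p-values were those of Tomm5 (-0.23 ± 0.07, edgeR adjusted p = 0.0775) and Timm23 (-0.21 ± 0.07, 0.0804). Summed import RNA under anti-CD3 was 3922 ± 77.6 CPM with isotype and 3687 ± 40.3 CPM with anti-LAIR-1 (SD, n = 3). On the list of other import factors 1 of 22 fell, Chchd4, by 0.31 ± 0.08 on the log2 scale (edgeR adjusted p = 0.0290), and none rose. In the same comparison 3 of the 6 naïve CD8 T cell markers rose, among them Lef1 by 0.67 and Cd3e by 0.45. Ccr7 differed by -0.21 and did not pass. The activation gene Il2ra fell by 0.49. Myc (-0.28), Cd69 (-0.07), Nr4a1 (-0.05) and Egr2 (0.12), also activation genes, did not pass. The part of all these genes in the import values was not tested.

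The carriers showed a median of -0.02 under anti-CD3. Slc25a45 lay higher with anti-LAIR-1 in 3 of 3 mice, by 1.05 ± 0.39, with overlapping groups, and did not pass without the mouse as a block (edgeR adjusted p = 0.139) but passed with it (adjusted p = 0.0470). It also passed without the anti-LAIR-1 library of mouse 1, by 1.43 (edgeR adjusted p = 0.0154). Of the 33 carriers tested, 2 were higher without overlap (6.06%) and 1 was lower (3.03%), where 12.9% and 11.1% of all genes were. Slc25a12 (0.38 ± 0.14, edgeR adjusted p = 0.142) and Slc25a11 (0.24 ± 0.15, edgeR adjusted p = 0.419) were higher. Slc25a32 was lower (-0.28 ± 0.13, edgeR adjusted p = 0.269). Summed carrier RNA was 2786 ± 98.4 CPM with isotype and 2757 ± 39.5 CPM with anti-LAIR-1. Outside the family, the sideroflexin Sfxn3 rose by 1.24 ± 0.18 with anti-LAIR-1 (edgeR adjusted p = 3.7e-04), from 19.7 ± 4.76 to 46.5 ± 10.1 CPM (SD, n = 3).

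In unstimulated cells no gene of either family passed for anti-LAIR-1 over isotype, and none of 8770 genes did (percentage called 0%, edgeR, and 0 by DESeq2's Wald test). At an unadjusted p under 0.05 were 384 genes, among them 5 of the 58 tested here by edgeR and 2 by DESeq2. Those 5 were Slc25a5 (-0.29 ± 0.11), Tomm6 (-0.25 ± 0.11), Tomm7 (-0.26 ± 0.10), Slc25a22 (-0.44 ± 0.19) and Slc25a26 (-1.03 ± 0.45), each with the lower mean in the anti-LAIR-1 libraries. The medians were -0.03 for import and -0.03 for carriers. Groups did not overlap for 2 import genes that were higher and 4 that were lower with anti-LAIR-1, and for 0 carriers that were higher and 2 that were lower, where 4.80% and 4.86% of all genes did so.

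The interaction asks whether anti-LAIR-1 acts differently with and without anti-CD3. None of the 22 import genes and 36 carriers tested passed, where 2.07% of 9223 genes did, 1.82% higher and 0.249% lower (edgeR over all 12 libraries), and none passed by DESeq2. At an unadjusted p under 0.05 were 6 of these 58 genes (10.3%) by edgeR, below the 12.2% of all genes, and 4 by DESeq2. Slc25a45 (0.92 ± 0.37, edgeR adjusted p = 0.261) passed only without the anti-CD3 and anti-LAIR-1 library of mouse 1 (1.32, adjusted p = 0.0113). The others were Tomm7 (0.34 ± 0.14), Timm44 (-0.58 ± 0.24), Slc25a35 (2.29 ± 1.06), Slc25a27 (1.51 ± 0.69) and Slc25a26 (0.96 ± 0.46).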

How the data were processed

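RNA was sequenced from 12 libraries of sorted naïve CD8+ T cells, 4 groups of 3 mice. The values are read counts per gene symbol as deposited, not normalized. The authors used an adapted CEL-seq protocol on an Illumina NextSeq, aligned the second read to the mm10 transcriptome by BWA MEM, dropped reads that fitted several places equally, and counted with MapAndGo. Whether molecular identifiers were collapsed is not given in the sources used here, so limits drawn from counts cover counting error only. Library totals were 1781218 to 7725545 counts.

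Groups were compared pairwise with edgeR 4.0.16 (R 4.3.3), using TMM, filterByExpr on the compared libraries, its quasi-likelihood test with p-values adjusted by Benjamini-Hochberg across every tested gene (threshold 0.05), and the interaction was fitted over all 12 libraries. The study's methods name DESeq2, which was run as an alternative (1.42.0, Wald test). CPM were normalized by TMM over the 12 libraries, log2 values for plots and pairing use a prior count of 2 or CPM + 1, and fold changes come from the fits. P-values rest on the spread between the libraries of a group, each from another mouse, and not on differences within each mouse. The fits were tested on simulated data. No libraries of a group agreed within sampling noise.

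Equal mouse numbers mark the same animal by the labels and the methods. Between libraries, deviations from the group mean had an average correlation across genes of 0.0432 in 18 pairs of libraries of the same mouse and -0.0216 in 36 pairs of different mice. The reported fits have no block for the mouse, and values with the block are given where they change a call.

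The genes and the lists of import factors, transporters, markers and motifs were chosen with earlier results of these data known. Library values are printed for the 8 highest and 8 lowest fold changes per family among genes that passed for anti-CD3 with isotype, genes that passed for anti-LAIR-1, the 5 most abundant genes per family and the paralog pairs Timm17a and Timm17b, Tomm40 and Tomm40l, Timm8a1 and Timm8b, Slc25a4 and Slc25a5, Slc25a12 and Slc25a13, Slc25a28 and Slc25a37, Slc25a33 and Slc25a36, and Slc25a24 and Slc25a25. Values of 1 carrier and 1 marker gene are not reported here by gene. A few further values were chosen after they were seen. Gene positions come from GENCODE M21 and promoters from RefSeq (GRCm38.p6). Of the 64 genes, 22 share exon sequence with another gene, none with a counted gene on the same strand and 8 with one on the opposite strand, and the strand setting of the counting is not given in the sources used here.

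Alternatives were DESeq2's size factors in edgeR, DESeq2, no filter on low counts, the mouse as a block, all 12 libraries in 1 fit and each library left out in turn. Leaving out the mitochondrial genome and Rn45s was chosen after seeing the data.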

Additional observations from a re-analysis of the deposited data

How the results depend on the processing

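For anti-CD3, the counts of import genes and carriers that rose or fell stayed within 1.5 times of the reported ones under every alternative. With isotype, 19 of the 20 import calls and 23 of the 25 carrier calls passed in every alternative, and with anti-LAIR-1 20 of 20 and 22 of 26 did. Among genes not called, 3 carriers with isotype (Slc25a4, Slc25a38 and Slc25a51) passed in some alternative. With anti-LAIR-1, 3 carriers (Slc25a44, Slc25a46 and Slc25a53) and 1 import gene, Tomm40l, did so. Leaving out 1 library gave 19 to 20 import genes and 12 to 13 carriers higher and 11 to 15 carriers lower with isotype, and 20 to 21, 13 to 14 and 11 to 13 with anti-LAIR-1. DESeq2's size factors moved the median of all genes by at most 0.02.

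For anti-LAIR-1 under anti-CD3, the count of import genes lower was 0 in the fit of all 12 libraries and 0 to 1 without 1 library. The count of carriers higher was 2 with no filter on low counts (Slc25a45 and Slc25a35), 1 with the mouse as a replicate block (Slc25a45), and 0 to 1 without 1 library. For the interaction, carriers higher numbered 0 to 1 without 1 library. With no filter, 5 genes of the whole table passed for anti-LAIR-1 in unstimulated cells. The block changed the call of no gene of either family other than Slc25a45 here and Slc25a53 for anti-CD3 with anti-LAIR-1. The causes were not tested.

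Some carriers that did not pass changed sign when 1 library was left out. For anti-CD3 with isotype, Slc25a53 ranged from -0.51 to 0.10, Slc25a44 from -0.10 to 0.19, Slc25a36 from -0.40 to 0.27 and Slc25a42 from -0.40 to 0.04.

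Depth limits the low carriers most. At 3 counts a library's limit was 0.388 to 1.68 CPM, and 7 carriers and Timm8a2 were too low to be tested for anti-CD3 with isotype. For Timm17a with anti-LAIR-1 under anti-CD3 the log2 fold change stayed at -0.31 to -0.28 in every alternative, and its adjusted p ranged from 0.0180 to 0.130.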
